A study of Mus musculus with 8 samples.

Results

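The complement system is a cascade of secreted proteins and their receptors, and 9 of its genes were examined in brains of young adult and aged mice: the C1q chains C1qa, C1qb and C1qc, the central components C3 and C4b, the inhibitor Serping1, and the receptor genes C3ar1, C5ar1 and Itgam. They were chosen by name, by matching the Ensembl identifiers of the gene count table to GENCODE symbols, and all 9 were among the 22430 genes listed and among the 16730 tested. RNA came from 8 male C57Bl/6JRj mice without a transgene or treatment given in the labels, 4 of 6 months (6m) and 4 of 24 months (24m). The sources call the tissue both whole brain and a brain hemisphere, and the isolation methods of the study describe dissected hemispheres. Polyadenylated RNA was sequenced from a lysate of that tissue, so every value is a mean over all its cell types.

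In the classical pathway, C1q recognises bound antibody or altered surfaces, its associated proteases cleave C4 and C2, and the resulting enzyme cleaves C3, whose fragments tag the surface. Serping1 encodes C1 inhibitor, which blocks the C1 proteases. C3ar1 and C5ar1 encode receptors of the anaphylatoxins C3a and C5a, and Itgam encodes CD11b, which pairs with the product of Itgb2 to form complement receptor 3. In brain, C1q is known as a product of microglia mainly, astrocytes are a known source of C4 and C3, and complement receptor 3 on microglia takes part in the removal of tagged synapses.

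Libraries held 63460940 to 103462414 counts, and the deepest was 24m replicate 1. Mitochondrial genes took 5.26 to 6.52% of the counts at 6m and 3.18 to 3.69% at 24m, and the TMM factors were 0.887 to 0.957 and 1.00 to 1.13, so both moved with age. With mitochondrial genes left out of the library sizes, C4b was at 1.89, C3 at 1.69, Itgam at 1.44 and C3ar1 at 0.90 on the log2 scale (24m against 6m), the same as with them. Levels are given in CPM, counts per 1e+06 after trimmed mean of M values (TMM) scaling, and fold changes (log2FC) are 24m against 6m on the log2 scale with their standard error (SE) from the quasi-likelihood fit of edgeR. A call needed padj, the p adjusted over all tested genes by Benjamini and Hochberg, to be 0.05 or less and the fold change to reach 0.58 on the log2 scale, thresholds taken from the study; 43.6% of all tested genes were called in either direction. Under these rules 4 of the 9 genes were called higher at 24m, namely C4b, C3, Itgam and C3ar1, where 25.3% of all tested genes were called higher. None of the 9 was called lower by edgeR, DESeq2 or limma-voom, and 0 of them fell at an unadjusted p under 0.05, where 18.3% of all tested genes were called lower. The median log2 fold change was 0.20 over the 9 genes and -0.0034 over all tested genes. The 4 genes called higher were also those in which all 24m libraries lay above all 6m libraries, as in 28.4% of tested genes. These 4 have the longest canonical transcripts of the 9 genes, 3744 to 5435 bases against 1087 to 2542 in the others. A fit with the trend over canonical transcript length removed was chosen after the data were seen. In it C4b was at 1.39, C3 at 1.25, Itgam at 1.22 and C3ar1 at 0.42, the last under the threshold. In bulk tissue, more cells of a type and more RNA per cell cannot be told apart.

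**Figure D1:**
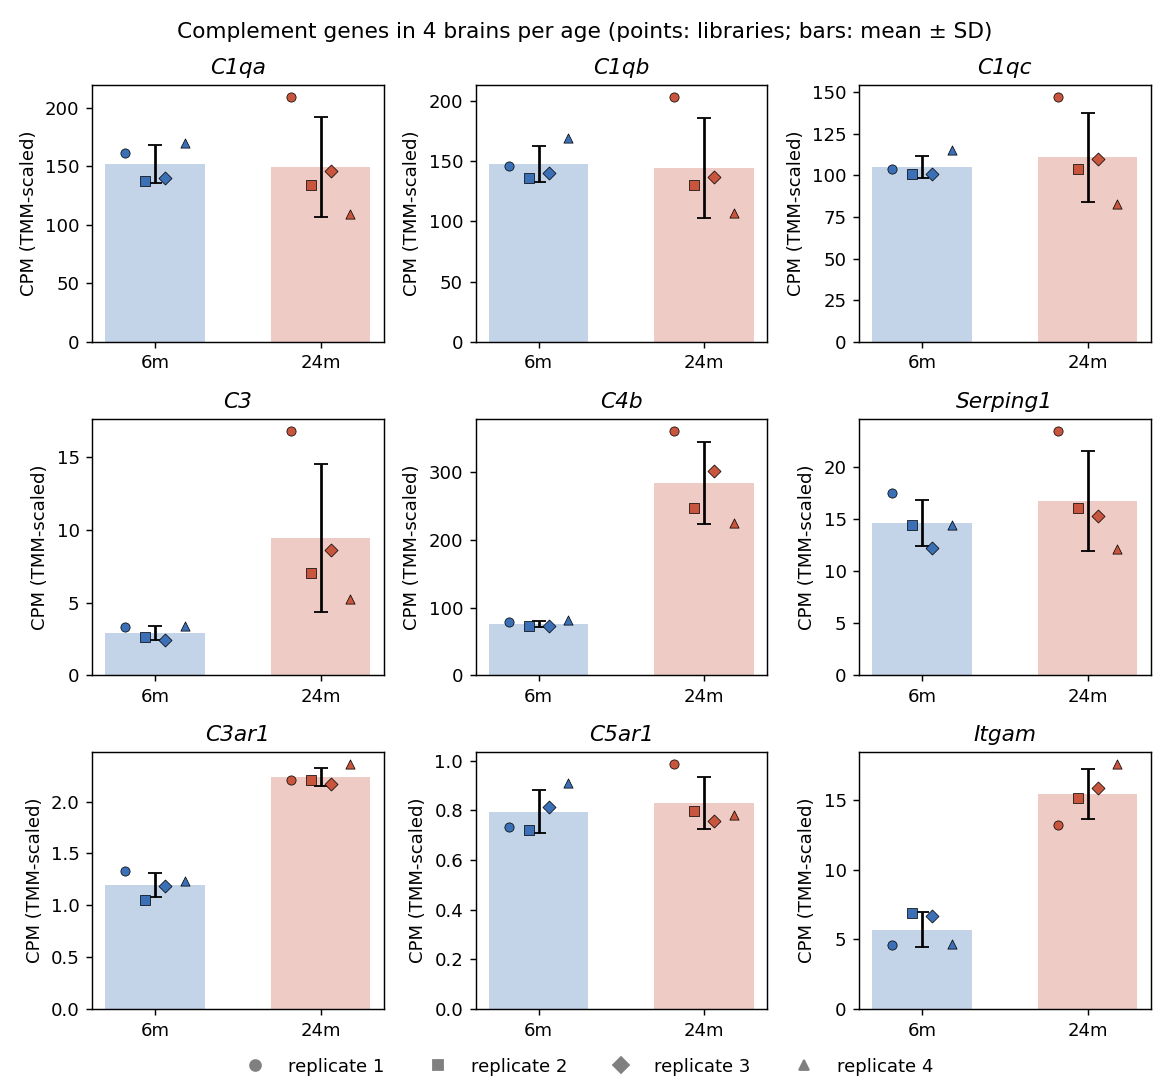
Level of each gene in CPM (vertical axes, from 0) at 6m and 24m, with points for single libraries and bars for the mean ± SD of 4. C4b, C3, Itgam and C3ar1 are separated by age, whereas the C1q chains, Serping1 and C5ar1 overlap between ages, and 24m replicate 1 (circle) is highest at 24m in 7 of the 9 panels, C3ar1 and Itgam being the exceptions.

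Sequences upstream of 3 of the genes are shown to place a gene that rose with age in the deposited counts (C3), the receptor gene with the highest fold change among the 9 (Itgam) and a C1q chain that did not pass the test (C1qb) side by side. The RefSeq table used here (GRCm38.p6) matched 6 of the 9 genes, and each window runs from 250 bases before to 50 bases after the start of the gene, 5′ to 3′ on the strand of the gene. C1qa, C4b and Serping1 had no entry. Capitals mark matches to any of 4 short motifs searched on both strands: GAGGAA, the core bound by PU.1 of myeloid cells, TTGCNNAA for C/EBP factors, TTCNNNGAA for STAT factors and the kappaB motif of NF-kappaB. The windows are chr17:57228087-57228386 (C3, reverse strand), chr7:128062390-128062689 (Itgam, forward strand) and chr4:136886151-136886450 (C1qb, reverse strand).
C3: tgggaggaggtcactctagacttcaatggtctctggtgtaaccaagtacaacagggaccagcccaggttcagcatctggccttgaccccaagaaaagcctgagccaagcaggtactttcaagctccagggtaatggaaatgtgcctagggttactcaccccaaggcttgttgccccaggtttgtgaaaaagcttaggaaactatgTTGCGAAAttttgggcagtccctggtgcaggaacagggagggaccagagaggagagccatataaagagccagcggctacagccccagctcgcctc
Itgam: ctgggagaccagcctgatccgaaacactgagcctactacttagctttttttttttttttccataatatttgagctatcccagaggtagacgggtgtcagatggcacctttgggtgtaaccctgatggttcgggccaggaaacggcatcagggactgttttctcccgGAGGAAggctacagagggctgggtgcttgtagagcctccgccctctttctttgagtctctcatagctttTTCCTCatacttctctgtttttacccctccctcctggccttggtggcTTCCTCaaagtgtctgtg
C1qb: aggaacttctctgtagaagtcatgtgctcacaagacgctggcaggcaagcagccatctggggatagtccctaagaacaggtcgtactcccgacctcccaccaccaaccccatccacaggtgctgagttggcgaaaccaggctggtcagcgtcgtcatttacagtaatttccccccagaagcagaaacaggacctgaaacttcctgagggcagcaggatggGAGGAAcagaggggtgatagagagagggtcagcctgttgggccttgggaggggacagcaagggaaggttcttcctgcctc

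In C3 the only match was TTGCGAAA of the C/EBP type, beginning 45 bases before the start, and 10.8% of 32851 windows of the same length held that motif. Itgam had 3 matches of the PU.1 type, and C1qb had 1, a motif found in 28.3% of all windows. The window of C1qc also held 1 match of the PU.1 type, that of C3ar1 held 1 of the NF-kappaB type (4.79% of windows), and that of C5ar1 held no match to any of the 4. The STAT type, in 8.3% of windows, matched none of the 6 genes. A match is a description of letters and not a bound site.

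The 3 C1q chains assemble into the recognition molecule of the classical pathway. Their genes lie side by side on the reverse strand of chromosome 4 (GRCm39): C1qb (ENSMUSG00000036905, 136606009 to 136613511), C1qc (ENSMUSG00000036896, 136616466 to 136620376) and C1qa (ENSMUSG00000036887, 136623223 to 136626161). C1qa had 161, 137, 140 and 170 CPM at 6m (replicates 1 to 4) and 209, 134, 146 and 109 CPM at 24m. The lowest and the highest values of C1qa were both 24m libraries, 24m replicate 3 lay within the range of 6m and 24m replicate 2 just under it. Its log2 fold change was -0.02 ± 0.18 (edgeR padj = 0.912).

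C1qb had 146, 136, 140 and 169 CPM at 6m and 203, 130, 137 and 107 CPM at 24m, a log2FC of -0.04 ± 0.18 (edgeR padj = 0.87). C1qc had 104, 101, 101 and 115 CPM at 6m and 147, 104, 110 and 82.6 CPM at 24m, a log2FC of 0.08 ± 0.15 (padj = 0.674). In all 3 chains 24m replicate 1 was the highest library and 24m replicate 4 the lowest. The coefficient of variation between libraries was 6.21 to 10.7% at 6m and 24.2 to 28.6% at 24m. The values moved with a correction for length. After removal of the trend over exonic length C1qa was at 0.53 (padj = 0.00148) and C1qc at 0.35 (padj = 0.0187), both under the fold-change threshold, and C1qb at -0.17 (padj = 0.447). After removal of the trend over canonical transcript length, an alternative chosen after the data were seen, C1qa was at 0.63 (padj = 0.000279), which passed both thresholds, C1qc at 0.42 (padj = 0.00562) and C1qb at 0.07 (padj = 0.712). Over all 23 settings the log2FC of C1qa ranged from -0.22 to 0.63 (padj from 0.000279 to 0.983), that of C1qb from -0.24 to 0.17 and that of C1qc from -0.08 to 0.42, the only negative value of C1qc being that without 24m replicate 1.

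The proportions of the chains were compared within each library, which needs no scaling between libraries. On the log2 scale the ratio of C1qa to C1qb was 0.04 ± 0.07 at 6m and 0.05 ± 0.03 at 24m (SD, n = 4 each; exact permutation p = 0.743, two-sided). The ratio of C1qc to C1qb was -0.49 ± 0.05 at 6m and -0.37 ± 0.07 at 24m, a difference of 0.12 (exact permutation p = 0.0571). In 24m replicate 1 that ratio was -0.46, inside the range of 6m, whereas the other aged libraries had -0.31, -0.32 and -0.37. These were 2 of 6 ratios compared, and neither passed after Benjamini-Hochberg adjustment over the 6 (adjusted exact p = 0.743 and 0.114).

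C4b and C3 encode the thioester proteins at the centre of the cascade, both on chromosome 17. C4b (ENSMUSG00000073418, 34947354 to 34962912, reverse strand) showed the highest fold change of the 9 genes. It had 78.9, 72.2, 73.3 and 81.2 CPM at 6m (replicates 1 to 4) and 361, 247, 301 and 225 CPM at 24m. The libraries of each age were far apart, since the lowest value at 24m was well above the highest at 6m. The mean rose from 76.4 ± 4.33 to 283 ± 60.7 CPM (SD, n = 4 each), a fold change of 3.71 and a log2FC of 1.89 ± 0.14 (edgeR padj = 2.42e-05). Ranked by fold change over all 16730 tested genes, C4b was number 633. C4a, a close copy of C4b on the same chromosome, was not analysed here, and how the counting treated reads that fit both genes was not stated.

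C3 (ENSMUSG00000024164, 57510964 to 57535155, reverse strand) is cleaved by the enzyme that C4 and C2 form. It had 219, 185, 146 and 222 counts at 6m and 1745, 562, 719 and 459 counts at 24m. In CPM these were 3.34, 2.62, 2.42 and 3.36 at 6m and 16.8, 7.01, 8.63 and 5.26 at 24m. All aged libraries were above all young ones, but they spread more than 3 times from lowest to highest, with 24m replicate 1 at the top. C3 rose by 1.69 ± 0.33 on the log2 scale (edgeR padj = 0.00179), and by 1.26 without 24m replicate 1, the lowest value with 1 library left out. In C3 and C4b together, the order of the 24m libraries was the same, replicate 1 first, then 3, 2 and 4.

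Serping1 (ENSMUSG00000023224, chromosome 2, 84595705 to 84620873, reverse strand), the inhibitor of the proteases upstream of C4, did not pass the test. It had 17.5, 14.4, 12.2 and 14.4 CPM at 6m and 23.5, 16.1, 15.3 and 12.1 CPM at 24m. The ages overlapped, the only value outside the young range by a margin being 24m replicate 1. Its log2 fold change was 0.20 ± 0.20 (edgeR padj = 0.394), and 0.00 without 24m replicate 1. After removal of the length trend the adjusted p of Serping1 was 0.0305 over exonic length and 0.00855 over canonical transcript length, with log2 fold changes of 0.44 and 0.54 that stayed under the threshold (padj from 0.00855 to 0.992 over all settings).

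Within a library, C4b was compared with genes acting before and around it. The log2 ratio of C4b to the mean of the C1q chains was -0.78, -0.77, -0.78 and -0.87 at 6m (replicates 1 to 4) and 0.97, 1.02, 1.21 and 1.19 at 24m. The difference of 1.90, a change of 3.72 times, was far larger than the spread within an age (SD of 0.05 and 0.12, n = 4 each; exact permutation p = 0.0286, two-sided, the smallest this design allows; adjusted over the 6 ratios, 0.0857). In this ratio 24m replicate 1 did not stand apart, although it was the highest aged library for C4b and for each chain. The ratio of C4b to Serping1 went from 2.40 ± 0.18 to 4.10 ± 0.19 (exact permutation p = 0.0286, adjusted 0.0857). The canonical transcript has 5435 bases in C4b, 1834 in Serping1 and 1087 to 2532 in the C1q chains, and neither ratio was corrected for length. With the trend over canonical transcript length removed, an alternative chosen after the data were seen, C4b was at 1.39 and Serping1 at 0.54. On the same log2 scale C1qa was then at 0.63, C1qb at 0.07 and C1qc at 0.42. Of the summed CPM of the 9 genes, C4b made up 14.5 to 15.3% in the 6m libraries and 36.9 to 40.9% in the 24m libraries, and the C1q chains 79.2 to 81.1% and 53.1 to 57.3%.

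Of the 3 receptor genes among the 9, Itgam (ENSMUSG00000030786, chromosome 7, 127661808 to 127717753, forward strand) had the highest fold change. It had 4.59, 6.87, 6.70 and 4.66 CPM at 6m and 13.2, 15.2, 15.9 and 17.6 CPM at 24m. Here 24m replicate 1 was the lowest of the aged libraries, the opposite of its place in C1q, C3 and C4b, and it was still above every 6m library. The mean rose from 5.71 ± 1.25 to 15.4 ± 1.81 CPM (SD, n = 4), a log2FC of 1.44 ± 0.17 (edgeR padj = 0.000129). A second gene model, Gm49368 (ENSMUSG00000108596, 127661855 to 127727332), overlaps exons of Itgam on the same strand. Its counts were 89.1 to 98.2% of those of Itgam in every library, so reads of these genes could not be told apart in the table.

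C3ar1 (ENSMUSG00000040552, chromosome 6, 122823393 to 122833122, reverse strand), the receptor of the C3a fragment, was expressed at a low level with 72 to 87 counts at 6m and 177 to 229 counts at 24m. In CPM it had 1.33, 1.05, 1.19 and 1.23 at 6m and 2.21, 2.21, 2.17 and 2.36 at 24m. The aged libraries were close to one another, with a coefficient of variation of 3.74%, and all were above the young ones. C3ar1 rose by 0.90 ± 0.13 on the log2 scale (edgeR padj = 0.000433). With the trend over canonical transcript length removed its log2 fold change was 0.42 (padj = 0.0326, the highest of all settings, the lowest being 4.97e-09), under the fold-change threshold.

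C5ar1 (ENSMUSG00000049130, chromosome 7, 15980668 to 15993465, reverse strand), the receptor of the C5a fragment, had 48 to 60 counts at 6m and 63 to 102 counts at 24m. Its levels were 0.732, 0.721, 0.813 and 0.908 CPM at 6m and 0.985, 0.799, 0.756 and 0.779 CPM at 24m. Libraries of the ages were interleaved, and the log2 fold change of 0.07 ± 0.17 did not pass (edgeR padj = 0.744). Over all settings it ranged from -0.13 with quantile-normalized counts in DESeq2 to 0.41 with the trend over exonic length removed (padj from 0.0414 to 0.941), and C5ar1 was called in none of them. The ligand to receptor ratio of C3 to C3ar1 was 1.26 ± 0.18 at 6m and 1.92 ± 0.74 at 24m on the log2 scale, with overlapping libraries (exact permutation p = 0.114, adjusted 0.137). The difference of 0.66 was 0.33 without 24m replicate 1. That of Itgam to its partner Itgb2 was -0.63 ± 0.36 and -0.01 ± 0.44 (exact permutation p = 0.114, adjusted 0.137).

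To compare levels between genes, CPM were divided by the length of the canonical transcript of each gene in kilobases. At 6m the order was C1qa (140 ± 14.9 CPM per kilobase), C1qb (58.4 ± 5.72), C1qc (56.8 ± 3.53), C4b (14.1 ± 0.797), Serping1 (7.96 ± 1.19), Itgam (1.52 ± 0.334), C3 (0.569 ± 0.0941), C5ar1 (0.312 ± 0.0341) and C3ar1 (0.239 ± 0.0231) (SD, n = 4). Among neighbours in that order, the libraries of C1qb and C1qc overlapped and the others did not. At 24m C4b stood at 52.1 ± 11.2 CPM per kilobase, and its libraries overlapped with those of C1qb at 56.9 ± 16.3, as those of C1qb did with C1qc at 60.0 ± 14.5. C3ar1 at 0.447 ± 0.0167 then lay above C5ar1 at 0.326 ± 0.0411 without overlap, the reverse of their order at 6m. The length of C1qb is uncertain in this comparison, because its annotated exons sum to 6246 bases and its canonical transcript to 2532 bases.

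**Figure D2:**
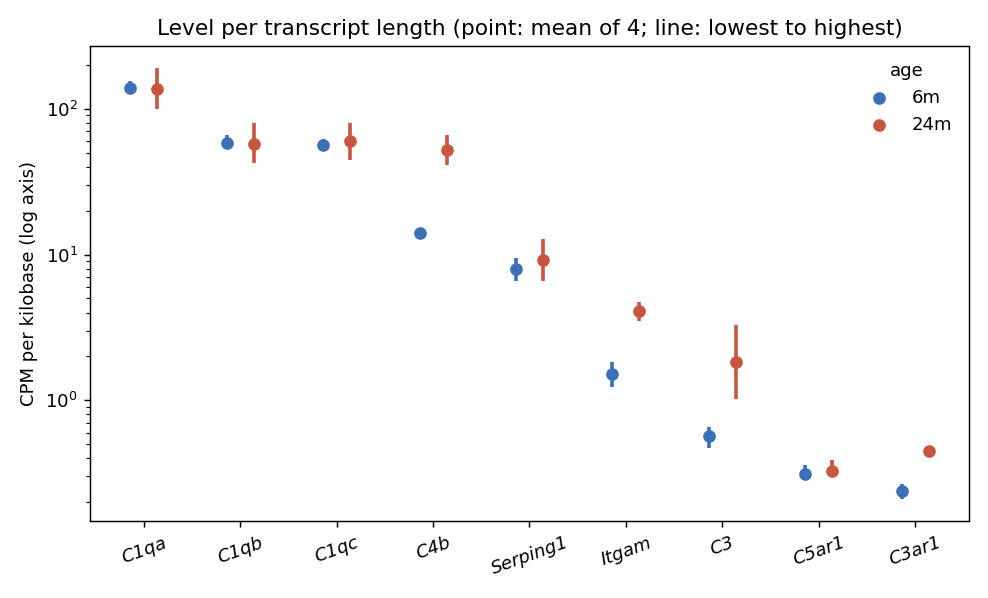
Level per transcript length (vertical log axis, CPM per kilobase) of the 9 genes in the order of their 6m means, at 6m and 24m. Points are means of 4 libraries and lines run from the lowest to the highest library, and C4b moves from 14.1 at 6m to 52.1 at 24m, next to C1qb and C1qc.

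The other complement genes were read from a list of 52 symbols ordered by role, of which 51 were in the table. Of these, 38 passed the filter on low counts, 9 were called higher and 5 lower by edgeR, against 25.3 and 18.3% of all tested genes, and the median log2 fold change was -0.07. The 13 that were not tested had at most 14 counts in any library, and 2 of them had none.

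**Figure D3:**
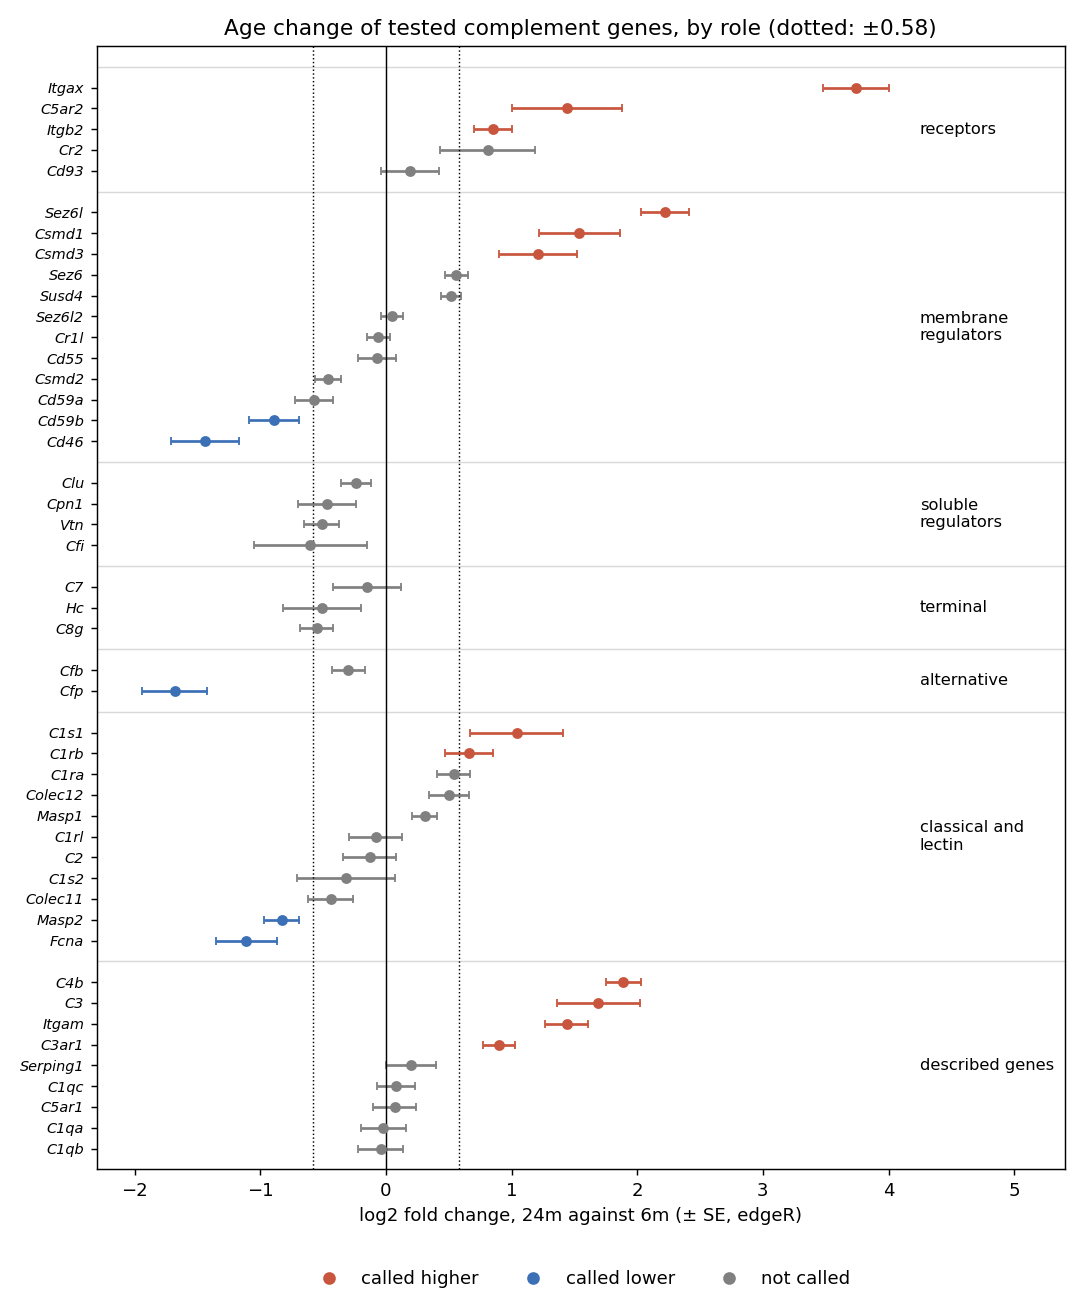
Log2 fold change, 24m against 6m, of the 9 described genes and the other tested complement genes but 1 (horizontal axis, ± SE of the edgeR fit), grouped by role. Red and blue points passed both thresholds, dotted lines mark 0.58 in either direction, and the described genes form a group of their own, and the group of other receptor genes holds 3 called higher, with Itgax at 3.74.

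In the initiating steps, 2 of 11 tested classical and lectin pathway genes were called higher and 2 lower, against 25.3 and 18.3% of all tested genes. C1rb, one of the C1r protease genes, rose from 0.999 ± 0.207 to 1.58 ± 0.223 CPM (SD, n = 4), a log2FC of 0.66 ± 0.19 (edgeR padj = 0.0133). Its call was lost without 6m replicate 3 (0.55) and with quantile-normalized counts in DESeq2 (0.40). C1rb has a close copy in C1ra, at 0.54 ± 0.13 (padj = 0.00445, under the fold-change threshold), so their reads could have been divided in either way. The protease gene C1s1, called higher with a mean over all libraries under 1 CPM and named after its values were seen, had 28 to 46 counts at 6m, 241 counts in 24m replicate 1 and 67 to 75 in the other aged libraries.

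Masp2, a protease of the lectin pathway, fell from 12.1 ± 1.61 to 6.83 ± 0.854 CPM, a log2FC of -0.83 ± 0.14 (edgeR padj = 0.000693). It overlaps Tardbp on the other strand, and whether reads were counted by strand is not given in the sources used here. C2, which encodes the protease that joins C4b in the C3 convertase, had 6.33 ± 0.622 CPM at 6m and 5.76 ± 1.97 CPM at 24m (padj = 0.597). The libraries overlapped, and the log2 fold change was -0.13 ± 0.21.

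Of the alternative pathway, Cfp and Cfb were tested. Cfp encodes properdin, which stabilises the alternative C3 convertase, and it had 17.8, 13.9, 17.2 and 17.6 CPM at 6m and 7.73, 6.02, 3.79 and 3.14 CPM at 24m. All aged libraries were below all young ones, as in 26.8% of tested genes. Cfp fell by 1.68 ± 0.26 on the log2 scale (edgeR padj = 0.000521), the lowest fold change among the 38 other genes. Cfb, which encodes factor B, the protease of that convertase, had a log2FC of -0.30 ± 0.13 (padj = 0.0649). The gene model Gm20547 overlaps exons of both Cfb and C2 on the same strand, and how reads in that overlap were counted was not stated. Of the terminal components 3 were tested and 0 were called by edgeR, DESeq2 or limma-voom in either direction, and 1 of them, C8g, had an unadjusted p under 0.05 by edgeR, at a log2FC of -0.55 ± 0.13 (padj = 0.00447).

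Among soluble regulators, Clu, which encodes clusterin, had 1902 ± 131 and 1613 ± 239 CPM (padj = 0.106). Vtn, for vitronectin, passed padj (0.00976) at a log2FC of -0.51 ± 0.14, under the threshold.

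Of 12 tested membrane regulators, 3 were called higher and 2 lower, shares close to the 25.3 and 18.3% of all tested genes. Those called higher, Sez6l, Csmd1 and Csmd3, encode proteins with CUB and sushi domains that are known from neurons. Their relatives were not called: Sez6 had 0.56 ± 0.09 (padj = 0.000616), Sez6l2 had 0.05 ± 0.09 (padj = 0.668) and Csmd2 had -0.46 ± 0.10 (padj = 0.00274) on the log2 scale. Sez6l rose from 28.5 ± 4.85 to 132.5 ± 31.3 CPM (2.22 ± 0.19 on the log2 scale, edgeR padj = 3.39e-05). Csmd1 had 7.42 CPM in 24m replicate 1 and 16.8, 18.6 and 26.2 CPM in 24m replicates 2 to 4, all above the 6m range of 4.72 to 7.27 CPM (1.54 ± 0.32, adjusted p = 0.0026). Csmd3 had 1.89 to 3.58 CPM at 6m and 3.16, 6.73, 7.13 and 8.98 CPM at 24m, with 24m replicate 1 inside the young range (1.21 ± 0.31, adjusted p = 0.00657). The mean log2 CPM of 10 neuron markers was 8.04 to 8.23 at 6m and 8.39 to 8.72 at 24m. Like Csmd1 and Csmd3 it was lowest among the aged libraries in 24m replicate 1 and highest in 24m replicate 4. The markers did not move together. Of the 10, 3 were called higher and 1 lower, 3 had all 24m libraries above all 6m, and 3 had them below. The part of neuron markers in these changes was not tested. With the length trend removed, the log2FC of Csmd1 was 0.87 over exonic length and 0.70 over canonical transcript length, and that of Csmd3 was 0.51 and 0.40, under the threshold.

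Cd59b, which encodes an inhibitor of the membrane attack complex, fell from 3.73 ± 0.428 to 2.01 ± 0.542 CPM, a log2FC of -0.89 ± 0.20 (edgeR padj = 0.00328). With the trend over canonical transcript length removed it was -0.42 (padj = 0.0233, the highest of all settings, the lowest being 2.11e-06), under the fold-change threshold. Its close copy Cd59a had -0.57 ± 0.15 (padj = 0.00815), just under the threshold. Cr1l, the gene of the rodent C3 convertase inhibitor Crry, had 15.0 ± 0.891 and 14.4 ± 0.579 CPM, a log2FC of -0.06 ± 0.09 (padj = 0.548). Cd46 and, in the lectin pathway, Fcna were also called lower and had under 1 CPM at both ages.

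Receptor subunits other than the 9 genes showed 3 calls higher of 5 tested, against 25.3% of all tested genes. Itgb2, the shared beta chain of the complement receptors 3 and 4, rose from 8.73 ± 0.773 to 15.7 ± 3.29 CPM, a log2FC of 0.85 ± 0.15 (edgeR padj = 0.00115). Itgax, which encodes the alpha chain of complement receptor 4 and neighbours Itgam on chromosome 7, rose from 0.329 ± 0.063 to 4.43 ± 1.18 CPM (3.74 ± 0.26, adjusted p = 2.05e-05). C5ar2, the second receptor of C5a, was called higher at 6 to 14 counts at 6m and 14 to 42 counts at 24m, with overlapping libraries.

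Cell markers were measured beside these genes, and their part in the changes was not tested. Of 15 tested microglia markers 4 were called higher and 0 lower by edgeR, a share of higher calls close to the 25.3% of all tested genes, with a median log2 fold change of 0.30 and 6 of them past an adjusted p of 0.05. Called were Cx3cr1 (1.72), P2ry13 (1.23), Laptm5 (0.94) and P2ry12 (0.75), whereas Trem2 (0.02) and Tyrobp (-0.24) were not. The summed level of the 15 markers was 498 to 510 CPM in the 6m libraries and 510 to 639 CPM in the 24m libraries. Their mean log2 CPM was 3.93 to 4.11 at 6m and 4.24 to 4.43 at 24m, without overlap. Of 10 astrocyte markers 7 were called higher and 0 lower (median log2 fold change 0.97), with a summed level of 2645 to 3439 CPM at 6m and 2624 to 3222 CPM at 24m. Most of that sum was Aldoc, at a log2FC of -0.29 ± 0.15 (padj = 0.129), whereas the mean log2 CPM of the list was 5.49 to 5.62 at 6m and 6.03 to 6.71 at 24m. Of 8 border macrophage markers 2 were called higher and 2 lower, with 29.1 to 35.3 and 24.0 to 31.9 CPM in all.

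Expressed against the mean of the microglia markers in the same library, C4b was higher at 24m by 1.54, C3 by 1.22, Itgam by 1.12 and C3ar1 by 0.56 on the log2 scale, each with no overlap between ages. The C1q chains went the other way by -0.40 to -0.28, Serping1 by -0.16 and C5ar1 by -0.27, each with overlapping libraries. Against the mean of the astrocyte markers, a comparison added after the data were seen, C4b was higher at 24m by 1.00 and Itgam by 0.58 without overlap, whereas C3 at 0.68 and C3ar1 at 0.02 overlapped between ages. In the same comparison the C1q chains were at -0.94 to -0.82, Serping1 at -0.70 and C5ar1 at -0.81, each with overlapping libraries. The markers of granulocytes and monocytes, which also carry Itgam and C5ar1, summed to 5.25 to 13.4 CPM at 6m and 3.12 to 9.17 CPM at 24m. Haemoglobin chains and Alas2, markers of blood in the tissue, summed to 5426 to 7604 CPM at 6m and 1242 to 4156 CPM at 24m. All 5 genes were called lower, where 18.3% of all tested genes were. Markers of B and plasma cells summed to 1160 CPM in 24m replicate 1 and to 45.7 to 82.0 CPM in the other 7 libraries.

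**Figure D4:**
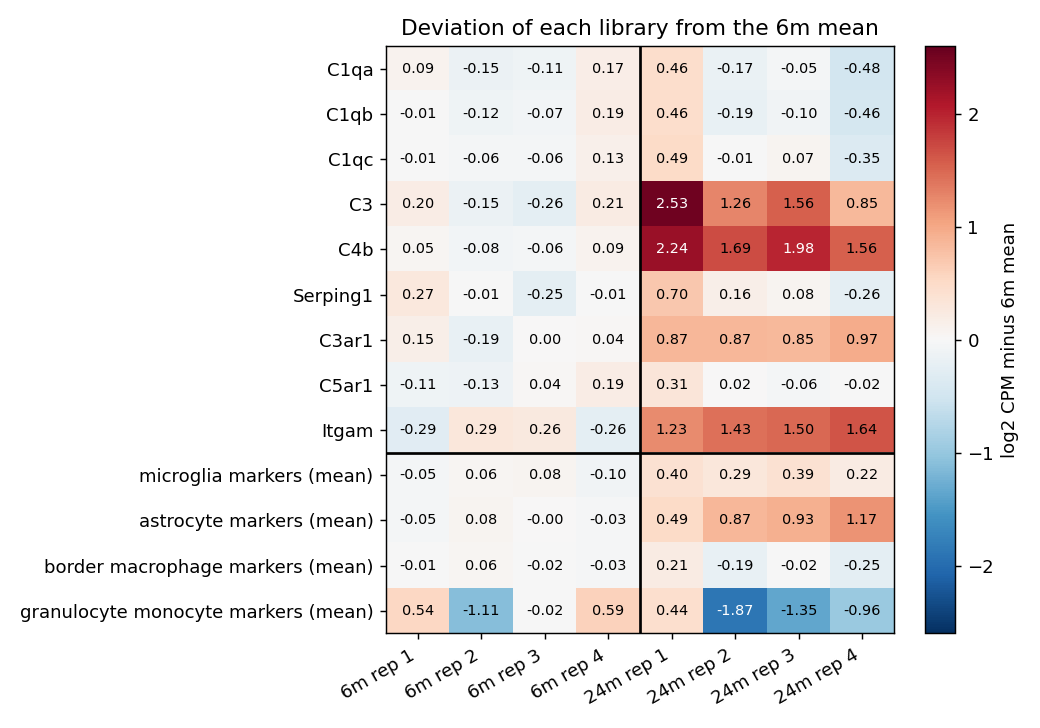
Log2 CPM of each library minus the 6m mean, for the 9 genes and for the mean of 4 marker lists (rows), with libraries in columns and a line between the ages. C3 and C4b are highest in 24m replicate 1 (2.53 and 2.24), where the C1q chains are also highest (0.46 to 0.49), whereas Itgam is lowest there among the aged libraries (1.23).

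The genes were compared by how libraries deviated from the mean of their age, taken over both ages together. Over the 8 libraries, deviations of the C1q chains correlated with each other at Pearson r of 0.98 to 0.99, with C4b at 0.94 to 0.96 and with C3 at 0.96 to 0.99, so C4b and C3, which rose with age, varied within an age along with the C1q chains, which did not pass the test. Itgam deviated in the opposite direction to the C1q chains (-0.74 to -0.61), for C3ar1 the values were -0.15 to 0.04 and for Serping1 0.84 to 0.90. Without 24m replicate 1, over 7 libraries, these were 0.93 to 0.96 among the chains, 0.84 to 0.89 with C4b and 0.88 to 0.97 with C3. With Serping1 they were 0.53 to 0.72 and with Itgam -0.78 to -0.53. The points share libraries and their depth, and the pattern was not particular to complement: of 13962 genes averaging 1 CPM or more, 2783 (19.9%) had an r above 0.9 with the mean of the C1q chains, and 1427 (10.2%) without 24m replicate 1. With C4b, 1140 had an r above 0.9 over 8 libraries. How many genes had a negative r like that of Itgam was not counted.

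By the same measure, over 8 libraries, the genes most like the mean of the C1q chains were Smarcb1 (r = 0.998), Psph, P4hb, Mtch1 and Mrpl40 (0.995). Those most like C4b were Apoc1 (0.982), Nupr1, Bhlha9, Dis3l2 and Ckm (0.979). Of all these, Mrpl40, Apoc1, Nupr1 and Ckm were called lower at 24m and the others were not called.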

How the data were processed

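RNA sequencing libraries of 4 brains per age were compared. The authors trimmed reads with Trim Galore 0.4.11, aligned them to GRCm39 with HISAT2 2.1.0 and counted them per gene with featureCounts, and the deposited table holds raw whole-number counts per gene and library without pooling. Strand setting and the treatment of multimapping reads were not stated. Here the counts were used as deposited; gene identifiers were matched to GENCODE (GRCm39), a later annotation than that of the authors, with 22281 of 22430 matched. Testing covered genes above 5 counts in 4 or more of the 8 libraries and used the edgeR 4.0.16 quasi-likelihood test (R 4.3.3; age as the only term). SE were obtained by dividing log2FC by the root of F. Log2 CPM used a prior count of 2. Ratios were compared by exact permutation over 70 assignments of libraries to ages. Alternatives were other scalings, DESeq2 1.42.0, limma-voom (limma 3.58.1), other filters, single libraries left out, the replicate number as a block, thinning, and removal of length or GC trends (lowess offset, span 0.3). The fit was tested on simulated data. The 9 genes, the other complement genes, the marker lists and the motifs were chosen with earlier results of these data known. Genes outside the 9 were named when called with a mean of at least 1 CPM, with others as stated, except 1 complement gene that is not reported here and is counted in the totals; likeness was Pearson r of log2 CPM deviations from the age mean, the 5 highest each. Each library came from its own animal; chi-square per degree of freedom in the 12 same-age pairs was 7.5 to 378, above counting noise in each. Among the 9 genes C5ar1 and C3ar1 had the fewest counts, 48 to 229 per library.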

Additional observations from a re-analysis of the deposited data

Results flagged for a closer look

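There were 5 values that lay far from the other 3 libraries of their age by the gap test of Dixon, in 72 groups of 4 tested, where chance flags about 1 in 20. The total count of 24m replicate 1 (103462414) stood apart from 72936345, 76695728 and 77044751, with a gap of 0.865 of the range. The log2 ratio of C4b to the mean of the C1q chains was -0.872 in 6m replicate 4 and -0.778 to -0.77 in the other 6m libraries (gap 0.925). The log2 ratio of C1qa to C1qb was 0.14 in 6m replicate 1 (gap 0.886), and Cfp had 13.9 CPM in 6m replicate 2 against 17.2 to 17.8 CPM in the others (gap 0.864). The mean log2 CPM of fibroblast and meninges markers was 2.68 in 24m replicate 2 against 2.51 to 2.54 (gap 0.845).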

How the results depend on the processing

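The 4 genes called higher among the 9 were the same under 21 of 22 alternative fits, and C4b, C3 and Itgam were called under all of them, with log2FC of at least 1.39, 1.25 and 1.15. With the trend over canonical transcript length removed, an alternative chosen after the data were seen, C1qa was called higher (0.63) and C3ar1 was not (0.42). The number of other complement genes called higher went from 9 to 14 with library totals alone, a scaling that shifted the all-gene median to 0.214 on the log2 scale. The number called lower went from 5 to 10 with quantile-normalized counts in DESeq2, and was 5 to 10 with single libraries left out, 10 being without 24m replicate 1; the cause was not tested. With library totals alone 75.7% of all called genes were higher, and 47.9% after quantile normalization, against 58.1%. With the replicate number as a replicate block, 4 of the 9 genes were called higher and 0 lower, and 9 and 5 of the other genes, as without it (C4b 1.87, C3 1.56, C3ar1 0.90, Itgam 1.45). Same-numbered libraries correlated in their deviations at 0.271, 0.143, 0.0778 and -0.348, so the samples share only a number. For the 6 ratios, 4 pairs cannot give an exact p under 0.125, and 4 against 3 libraries none under 0.0286. Summing C4a with C4b was planned and not run. Low counts limit C5ar1, C3ar1, C5ar2 and C1s1.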
